A study of Homo sapiens with 6 samples.

Results

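The 48 genes described here encode the proteins that carry glucose through glycolysis, the pentose phosphate branch, glycogen, lactate exchange, pyruvate dehydrogenase and the tricarboxylic acid (TCA) cycle. They were chosen by gene symbol, and all 48 were found among the 17114 symbols of the expression tables. RNA of 786-O cells, an established line of human clear cell renal carcinoma, was sequenced from 6 libraries in 2 groups of 3, cells exposed to Vehicle and cells exposed to XMU_MP_1. Both groups are the same single cell line with no other difference in the labels, which call the exposure a transfection and give neither its dose nor its time. XMU-MP-1 blocks MST1 and MST2, kinases of the Hippo pathway, and the comparison addresses what it did to transcript levels. Levels are in FPKM, a fragment count divided by transcript length and library size, so that genes and libraries of different size can be set side by side.

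Glycolysis splits glucose into pyruvate in the cytosol. A preparatory phase spends ATP and a payoff phase returns it. Pyruvate is then either reduced to lactate and exported, or taken into mitochondria, where the pyruvate dehydrogenase complex feeds it to the TCA cycle unless pyruvate dehydrogenase kinases switch the complex off. Clear cell renal carcinoma typically loses the VHL protein, as 786-O cells have, so that hypoxia-inducible factors (HIF) stay active at normal oxygen, and many genes of glucose uptake, glycolysis and lactate export are known HIF targets.

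Renal identity genes were present in every library. PAX8, a kidney lineage transcription factor, measured 113 to 133 FPKM, and among 12 renal tubule and clear cell carcinoma markers, 10 had a mean of at least 1 FPKM. PAX8 was the only one of the 10 called higher, and 7 were called lower, with log2 changes from -0.66 for NNMT to -1.67 for HAVCR1 and -2.04 for VCAM1. CA9, a classic HIF target of this tumour, was at 0.03 to 0.26 FPKM. All 4 endothelial and all 4 fibroblast markers had means under 1 FPKM, as had PTPRC, CD14 and ITGAM of the leukocyte markers, whereas CD68, which many cell types express, measured 31.1 to 33.0 FPKM. The summed FPKM of the 12 renal markers was 4283 to 4513 in Vehicle and 3581 to 3813 in XMU_MP_1, without overlap and with most of it from VIM (3583 and 3187 FPKM, adjusted p = 0.095), and the part of these markers in the results was not tested. In RNA from whole cultures, fewer cells of a kind and less RNA per cell cannot be told apart. Per library, FPKM summed to 454889 to 487218 in Vehicle and to 495351 to 527709 in XMU_MP_1, without overlap. The sequencing depth behind these sums is unknown. Vehicle replicate 2 and XMU_MP_1 replicate 3 stood apart from the other pair of their group. Over the 3950 genes averaging 20 FPKM or more, log2 differences had an SD of 0.0904 between Vehicle replicates 1 and 3 and of 0.0699 between XMU_MP_1 replicates 1 and 2, against 0.142 to 0.154 for the other pairs within a group. Whether the 3 libraries of a group stem from different cultures is not in the labels, and p-values rest on library-to-library spread that could be purely technical.

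The 48 genes covered a very wide range of levels and together held a nearly fixed part of the transcriptome. GAPDH, the dehydrogenase that opens the payoff phase, led with 6208 ± 385 FPKM in Vehicle (mean ± SD, n = 3 here and below), followed by the enolase gene ENO1 (2302 ± 63.7), the pyruvate kinase gene PKM (1952 ± 28.1), the lactate dehydrogenase gene LDHA (1073 ± 69.3) and the triosephosphate isomerase gene TPI1 (1039 ± 52.7). At the other end stood ALDOC, the brain-type aldolase gene, at 0.73 ± 0.282 FPKM. The members made up 3.70%, 3.70% and 3.69% of the summed FPKM in Vehicle replicates 1 to 3 and 3.68%, 3.71% and 3.86% in XMU_MP_1 replicates 1 to 3. The groups overlapped, with XMU_MP_1 replicate 3 above the other 5 libraries.

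Members passed the test about as often as genes in general, in both directions, and their median absolute change was smaller. Of the 48, 47 had a mean of at least 1 FPKM over all libraries and were tested, and ALDOC was not. With limma at a Benjamini-Hochberg adjusted p below 0.05 over all 11151 genes tested, 17 members were higher with XMU_MP_1, 10 were lower and 20 did not pass. That is 57.4% of the tested members, against 57.9% of all genes tested (32% higher and 25.9% lower). On the log2(FPKM + 1) scale, which understates changes of low genes, the median absolute log2 change was 0.17 for members and 0.22 for all genes. Only 8 members (17.0%) passed with an absolute log2 change of at least 0.4, against 25.7% of all genes, and none reached 1. The median signed change was 0.08 for members and 0.04 for all genes. The 3 libraries of either group lay wholly above or below the other 3 for 32 of the 47 members (68.1%, against 63.7% of all genes), and for all 27 that passed.

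**Figure D1:**
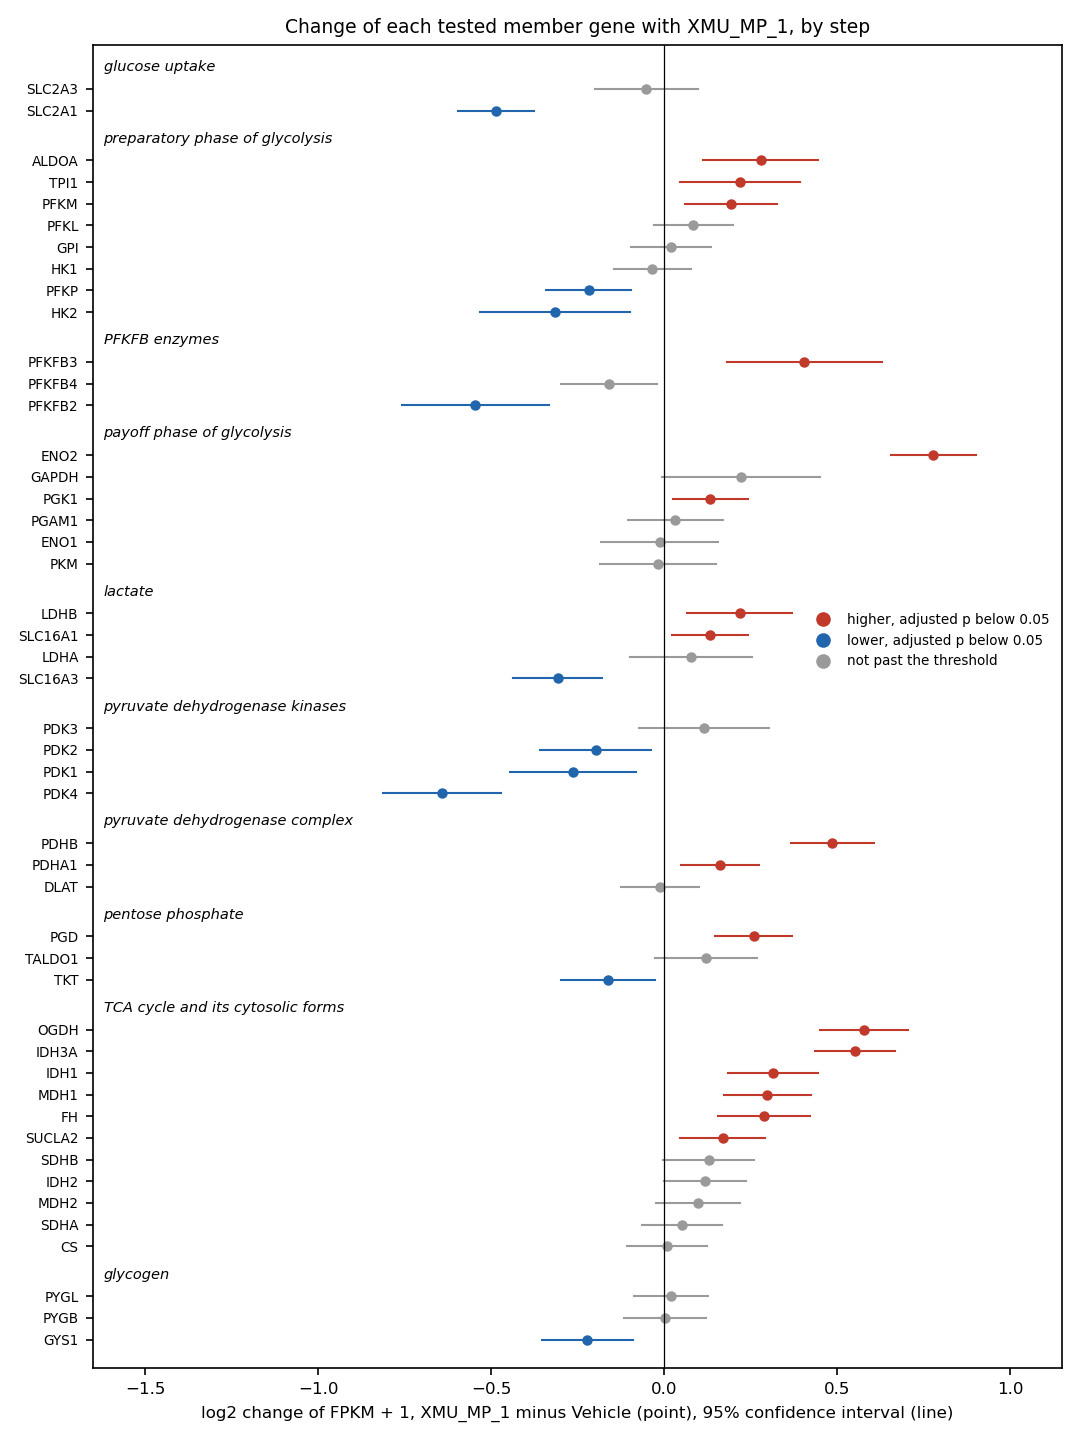
Log2 change of FPKM + 1 (horizontal axis, XMU_MP_1 minus Vehicle) for the 47 tested member genes, grouped by step, with points for the estimate and lines for the 95% confidence interval from limma. The 11 TCA cycle genes all sit at or above 0, 3 of 4 pyruvate dehydrogenase kinases sit below it, and ENO2 at 0.78 and PDK4 at -0.64 are the extremes. With libraries rescaled to a common sum CS and SDHA of the TCA cycle lie below 0.

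The counts of calls moved with the scaling and with single libraries. With all libraries rescaled to a common sum, 10 members were higher and 11 lower, and over all genes the share of higher calls went from 55.3% to 39.5%. With median-ratio scaling 12 members were higher and 11 lower, and 49.6% of all calls were higher. Without Vehicle replicate 2 and XMU_MP_1 replicate 3, 18 were higher and 9 lower. Without XMU_MP_1 replicate 1, 11 were higher and 8 lower, and with the 2 most similar libraries of each group averaged, 8 were higher and 7 lower. In all, 13 members passed in the same direction under each alternative that tested them, a minimum fold aside, 8 of them higher (ENO2, PDHB, PGD, OGDH, IDH3A, IDH1, MDH1 and FH) and 5 lower (SLC2A1, PFKFB2, SLC16A3, PDK4 and GYS1). PFKFB2 and PDK4 are too low for the alternative that asked for a mean of at least 5 FPKM.

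Of the 2 glucose transporter genes among the members, 1 was lower, as were 25.9% of all genes tested, and 1 did not pass. SLC2A1 (chromosome 1, 42925375 to 42959176, minus strand, GENCODE 29 on GRCh38) encodes GLUT1, the main glucose transporter of most tumour cells. It measured 194, 196 and 193 FPKM in Vehicle replicates 1 to 3 and 139.6, 141 and 135 FPKM in XMU_MP_1 replicates 1 to 3. All Vehicle libraries lay within 3 FPKM of each other and far above all XMU_MP_1 libraries. SLC2A1 fell by 0.48 ± 0.050 on the log2 scale (SE, limma adjusted p = 1.39e-05). SLC2A3, which encodes the high-affinity transporter GLUT3, was expressed at 4.52 ± 0.239 and 4.32 ± 0.182 FPKM and did not pass (adjusted p = 0.539, 95% interval of the log2 change -0.20 to 0.10). It held 2.27% ± 0.113 of the FPKM of both transporters in Vehicle and 3.02% ± 0.0983 with XMU_MP_1, with no overlap. An exact two-sided permutation test of that share gave p = 0.1, the smallest that 3 libraries against 3 allow, and adjusted p = 0.143 over 10 isoenzyme shares.

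Of the 8 preparatory phase genes tested, 3 were higher, 2 were lower and 3 did not pass. Of all genes tested 32% were higher and 25.9% lower. HK2 encodes the inducible hexokinase of tumours, which traps glucose in the cell by phosphorylation. It measured 11.1, 13.0 and 10.5 FPKM in Vehicle and 9.86, 9.68 and 7.74 FPKM in XMU_MP_1. The highest value was that of Vehicle replicate 2 and the lowest that of XMU_MP_1 replicate 3, and the groups came within 1 FPKM of each other. HK2 fell by 0.32 ± 0.098 on the log2 scale (limma adjusted p = 0.0176). The call was lost when Vehicle replicate 2 was left out (adjusted p = 0.0631), when XMU_MP_1 replicate 3 was (0.0529) and when both were (log2 change -0.13, adjusted p = 0.0584). HK1, the housekeeping hexokinase gene, was at 68.4 ± 2.47 and 66.8 ± 1.31 FPKM (log2 change -0.03, adjusted p = 0.584), and the HK2 share of the pair was 14.4% ± 0.956 in Vehicle and 12.0% ± 1.26 with XMU_MP_1.

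Phosphofructokinase commits sugar to glycolysis and has 3 isoenzyme genes. PFKP, the platelet-type gene, was the most abundant and went from 291 ± 1.57 to 250.04 ± 9.78 FPKM (log2 change -0.22 ± 0.056, limma adjusted p = 0.00667), while the muscle-type gene PFKM went from 13.6 ± 0.689 to 15.7 ± 0.686 FPKM (0.19 ± 0.061, adjusted p = 0.0185). The liver-type gene PFKL, at 62.6 ± 1.28 and 66.5 ± 2.91 FPKM, did not pass (adjusted p = 0.184). PFKP held 79.2% ± 0.373 of their FPKM in Vehicle and 75.3% ± 0.367 with XMU_MP_1. The call of PFKM was lost when Vehicle replicate 3 (adjusted p = 0.0808) or XMU_MP_1 replicate 2 (0.0798) was left out, with libraries rescaled to a common sum (0.317) and with the closest pairs averaged (0.12), and that of PFKP with the closest pairs averaged (0.111).

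Downstream of it, ALDOA, which encodes the aldolase that cleaves the sugar, rose from 906 ± 16.5 to 1102 ± 85.4 FPKM (log2 change 0.28 ± 0.075, limma adjusted p = 0.00858), and TPI1 rose to 1211 ± 85.4 FPKM (0.22 ± 0.078, adjusted p = 0.0331). XMU_MP_1 replicate 3 was the highest library for both, at 1200.1 and 1307 FPKM. Without it TPI1 did not pass (adjusted p = 0.0888), nor without Vehicle replicate 1, Vehicle replicate 2 or XMU_MP_1 replicate 1 (adjusted p from 0.0557 to 0.0739). TPI1 also missed the threshold with median-ratio scaling (0.0757) and a common sum (0.0604). Neither gene passed with quantile normalization (adjusted p = 0.171 for ALDOA and 0.153 for TPI1) or with the closest pairs averaged (0.0537 and 0.105). GPI, the phosphoglucose isomerase gene, was at 78.6 ± 0.827 and 79.7 ± 3.95 FPKM (adjusted p = 0.777). ALDOC measured 0.47, 0.69 and 1.03 FPKM in Vehicle and 1.01, 0.94 and 1.14 FPKM in XMU_MP_1, overlapping values that were too low to be tested.

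The PFKFB enzymes make and break the sugar bisphosphate that activates phosphofructokinase, and their genes moved in opposite directions. PFKFB3, whose product favours synthesis and so glycolysis, measured 19.5, 24.98 and 20.8 FPKM in Vehicle and 31.5, 30.7 and 25.04 FPKM in XMU_MP_1. Vehicle replicate 2 and XMU_MP_1 replicate 3 nearly touched, and the other libraries were well apart. PFKFB3 rose by 0.41 ± 0.101 on the log2 scale (limma adjusted p = 0.00556), or 0.30 with adjusted p = 0.0532 when the closest pairs were averaged. PFKFB2, the heart-type gene, measured 1.45, 1.88 and 1.54 FPKM in Vehicle and 0.92, 0.89 and 0.59 FPKM in XMU_MP_1, without overlap, a change of -0.55 ± 0.095 (adjusted p = 6.14e-04) at levels near the filter. PFKFB4 was at 12.3 ± 0.728 and 10.9 ± 0.439 FPKM, also without overlap, but just missed the threshold (-0.16 ± 0.063, adjusted p = 0.0508). It passed as lower with any of the 3 scalings (adjusted p from 0.0231 to 0.0249) and without XMU_MP_1 replicate 3 (0.0431). Among these 3 genes PFKFB3 held 60.8% of the FPKM in Vehicle and 71.1% with XMU_MP_1, and the share of PFKFB4 was 34.7% ± 1.89 and 27.0% ± 3.18.

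**Figure D2:**
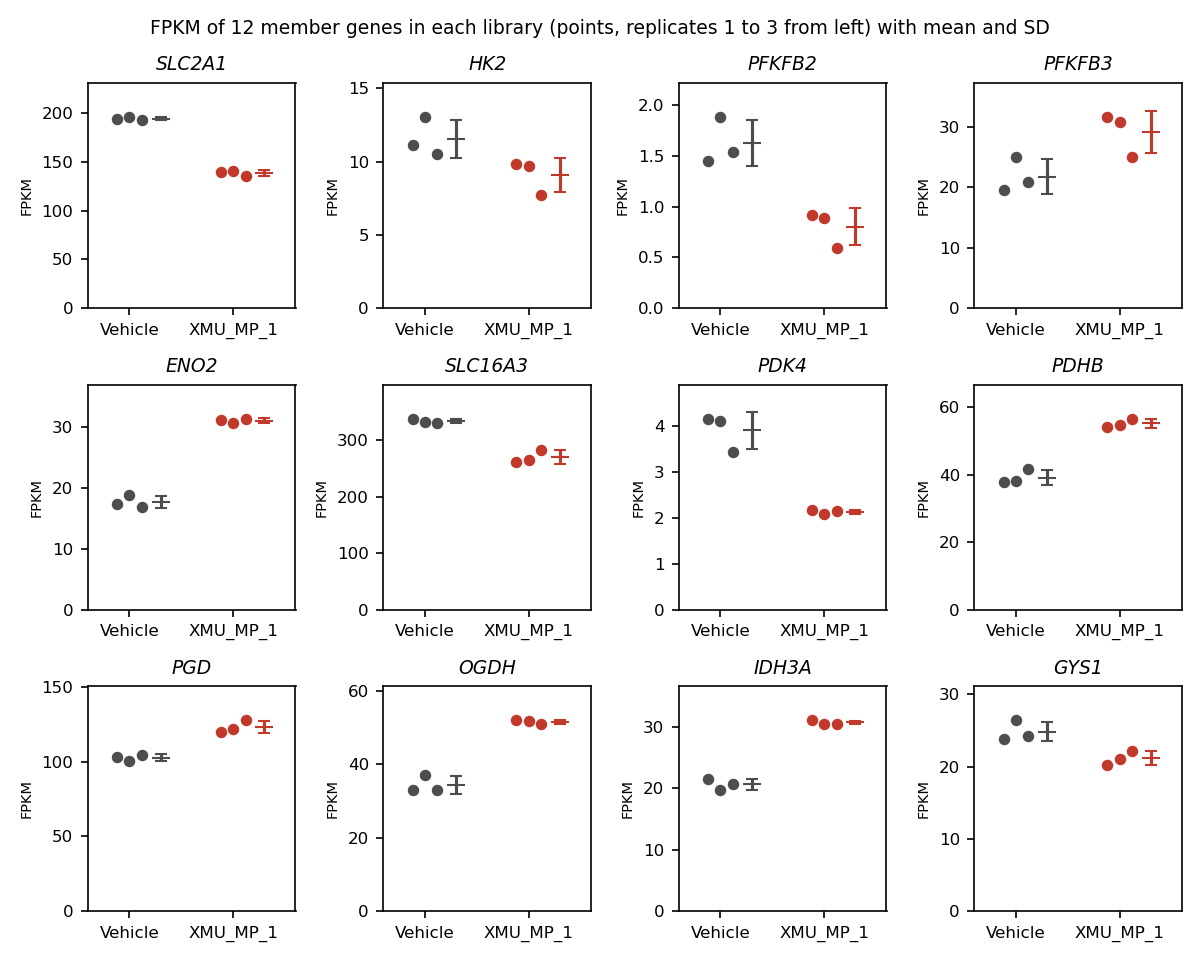
FPKM (vertical axes, from 0) of 12 member genes in each library, with points for replicates 1 to 3 of Vehicle and XMU_MP_1 and bars for the mean ± SD (n = 3). The groups do not overlap in any of the panels, and they lie closest in HK2 and PFKFB3.

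In the payoff phase most of the abundant transcripts did not pass. With 1 added to FPKM, the minor enolase gene had the largest log2 change of all members. ENO2 (chromosome 12, 6913745 to 6923698, plus strand) encodes the neuron-type enolase and is a known HIF target. It measured 17.3, 18.9 and 16.9 FPKM in Vehicle and 31.2, 30.6 and 31.4 FPKM in XMU_MP_1. The 3 XMU_MP_1 libraries were within 1 FPKM of each other and all far above Vehicle. The change was 0.78 ± 0.055 on the log2 scale (limma adjusted p = 9.24e-07), and ENO2 was the only member to pass when tested against a minimum fold of 1.5, which 5.5% of all genes did. Its rank depended on the amount added to FPKM. With 0.1 in place of 1, the low genes PFKFB2 (-0.95) and PDK4 (-0.84) changed more than ENO2 (0.81). ENO1, the main enolase gene, was at 2302 ± 63.7 and 2283 ± 84.2 FPKM (adjusted p = 0.9, 95% interval -0.18 to 0.16). ENO2 held 0.764% ± 0.0626 of enolase FPKM in Vehicle and 1.34% ± 0.0381 with XMU_MP_1, with no overlap (exact permutation p = 0.1, adjusted p = 0.143).

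Of the other payoff genes only PGK1, the phosphoglycerate kinase gene, passed, at 137 ± 3.15 and 150.3 ± 0.858 FPKM (log2 change 0.13 ± 0.049, limma adjusted p = 0.0368). Its call was lost without any of the libraries except XMU_MP_1 replicate 3 (adjusted p from 0.0602 to 0.116), with median-ratio scaling (0.112), a common sum (0.565), plain moderation (0.0522) and the closest pairs averaged (0.204). GAPDH measured 6419, 5763 and 6441 FPKM in Vehicle and 6925, 6818 and 8023 FPKM in XMU_MP_1. Each XMU_MP_1 library was higher than each Vehicle library, with the lowest value in Vehicle replicate 2 and the highest in XMU_MP_1 replicate 3, and the change did not pass (0.22 ± 0.104, adjusted p = 0.0872). It passed as higher with plain moderation (0.22, adjusted p = 0.0351) and, at a smaller size, without these 2 libraries (0.10, adjusted p = 0.00897), and it turned negative under quantile normalization (-0.31, adjusted p = 0.0283). The phosphoglycerate mutase gene PGAM1 was at 546 ± 12.6 and 559 ± 21.3 FPKM (adjusted p = 0.676), and PKM at 1952 ± 28.1 and 1931 ± 95.4 FPKM (adjusted p = 0.859). Under quantile normalization PKM (-0.25, adjusted p = 8.99e-04) and ENO1 (-0.19, adjusted p = 0.00561) passed as lower.

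Many of these genes have processed copies in the genome. GENCODE 29 names 62 pseudogenes after GAPDH, 13 after PGAM1, 6 after LDHA, 5 after PKM and 4 each after ENO1 and TPI1, and how reads shared with them were assigned is not given in the sources used here. PGAM4, an expressed retrocopy of PGAM1, was listed at 3.66 to 5.43 FPKM in Vehicle and 5.12 to 6.22 FPKM in XMU_MP_1. Exons of 23 members overlap a gene on the other strand, among them SLC2A1, HK2, PFKFB2, SLC16A3, PDHB and IDH3A, and strand use in counting is not given either. Exons of 9 members overlap another gene on the same strand, among them SLC2A1, SLC16A3, PGK1, PFKFB4 and LDHB, where strand does not tell the genes apart.

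Of the 4 lactate genes 2 were higher and 1 was lower, against 32% and 25.9% of all genes tested. SLC16A3 (chromosome 17, 82228397 to 82261129, plus strand) encodes MCT4, the HIF-induced transporter with which glycolytic cells export lactate. It measured 338, 333 and 331 FPKM in Vehicle and 261, 265 and 284 FPKM in XMU_MP_1. The Vehicle libraries were tightly grouped, and XMU_MP_1 replicate 3 was the nearest to them of its group. SLC16A3 fell by 0.31 ± 0.058 on the log2 scale (limma adjusted p = 0.00101). SLC16A1, which encodes the more widespread transporter MCT1, was at 47.2 ± 0.984 and 51.8 ± 1.71 FPKM (0.13 ± 0.050, adjusted p = 0.0399), a call that was lost without Vehicle replicate 1 or 3 or XMU_MP_1 replicate 1 or 2 (adjusted p from 0.112 to 0.132), with median-ratio scaling (0.11), a common sum (0.654), plain moderation (0.0631) and the closest pairs averaged (0.287). The SLC16A3 share of both transporters was 87.6% ± 0.270 in Vehicle and 83.9% ± 1.03 with XMU_MP_1.

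LDHA, which encodes the lactate dehydrogenase subunit that favours lactate formation, was at 1073 ± 69.3 and 1133 ± 73.3 FPKM and did not pass (log2 change 0.08, 95% interval -0.10 to 0.25, limma adjusted p = 0.421). LDHB, which encodes the subunit that favours pyruvate, was at 395 ± 28.9 and 459 ± 12.6 FPKM and passed as higher (0.22 ± 0.069, adjusted p = 0.0187). That call was lost when Vehicle replicate 1 (adjusted p = 0.0657) or XMU_MP_1 replicate 1 (0.0729) was left out, with libraries rescaled to a common sum (0.0764), with quantile normalization (0.0555) and with the closest pairs averaged (0.0801). LDHB held 26.5%, 26.9% and 27.2% of the FPKM of the pair in Vehicle and 30.4%, 28.7% and 27.5% in XMU_MP_1. The groups did not overlap but were close, and the exact permutation p was 0.1.

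The pyruvate dehydrogenase kinases phosphorylate and switch off the pyruvate dehydrogenase complex, and 3 of 4 kinase genes were lower, against 25.9% of all genes tested. PDK4, the kinase gene known for induction by fasting and fatty acids, measured 4.15, 4.11 and 3.43 FPKM in Vehicle and 2.16, 2.08 and 2.15 FPKM in XMU_MP_1. All XMU_MP_1 libraries were below all Vehicle libraries and close together. PDK4 fell by 0.64 ± 0.077 on the log2 scale (limma adjusted p = 4.37e-05). PDK1, a HIF target, was at 6.43 ± 0.589 and 5.19 ± 0.482 FPKM (-0.26 ± 0.083, adjusted p = 0.0185), and PDK2 at 7.88 ± 0.475 and 6.75 ± 0.530 FPKM (-0.20 ± 0.073, adjusted p = 0.0377). PDK3, at 5.34 ± 0.686 and 5.84 ± 0.254 FPKM, did not pass (adjusted p = 0.266). The summed FPKM of the 4 genes was 23.7, 22.4 and 24.6 in Vehicle and 20.2, 19.5 and 20.1 in XMU_MP_1, without overlap. The call of PDK1 was lost without Vehicle replicate 3 (adjusted p = 0.0827) or XMU_MP_1 replicate 3 (0.0543), and that of PDK2 without Vehicle replicate 2 or 3 or XMU_MP_1 replicate 1 or 2 (adjusted p from 0.068 to 0.136) with no filter on low values (0.0601) and with the closest pairs averaged (0.167).

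Genes of the complex itself were higher or did not pass. PDHB (chromosome 3, 58427630 to 58433857, minus strand) encodes the beta subunit of its first enzyme. It measured 37.7, 38.03 and 41.7 FPKM in Vehicle and 54.2, 54.8 and 56.5 FPKM in XMU_MP_1, with a wide gap between the groups. PDHB rose by 0.49 ± 0.054 on the log2 scale (limma adjusted p = 2.59e-05). PDHA1, the alpha subunit gene, was at 61.7 ± 1.83 and 69.1 ± 2.33 FPKM (0.16 ± 0.051, adjusted p = 0.0194). Its call was lost without XMU_MP_1 replicate 1 (adjusted p = 0.0537), with median-ratio scaling (0.0604), with libraries rescaled to a common sum (0.319) and with the closest pairs averaged (0.0857). DLAT, which encodes the acetyltransferase core, was at 22.7 ± 0.314 and 22.5 ± 0.758 FPKM (adjusted p = 0.852, 95% interval -0.12 to 0.10).

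Of the 11 TCA cycle genes 6 passed as higher and 0 as lower, against 32% and 25.9% of all genes tested, and their median log2 change was 0.17 against 0.04 for all genes. OGDH (chromosome 7, 44606572 to 44709066, plus strand) encodes the oxoglutarate dehydrogenase. It measured 33.0, 37.2 and 32.9 FPKM in Vehicle and 52.1, 52.0 and 51.1 FPKM in XMU_MP_1. The highest Vehicle library was still far below the lowest XMU_MP_1 library. OGDH rose by 0.58 ± 0.058 on the log2 scale (limma adjusted p = 1.17e-05). IDH3A (chromosome 15, 78131498 to 78171949, plus strand), which encodes the catalytic subunit of the NAD-dependent isocitrate dehydrogenase, measured 21.6, 19.8 and 20.8 FPKM in Vehicle and 31.1, 30.6 and 30.6 FPKM in XMU_MP_1. Here too the groups were far apart, and IDH3A rose by 0.55 ± 0.052 (adjusted p = 7.41e-06).

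The fumarase gene FH rose from 40.7 ± 2.65 to 49.9 ± 2.11 FPKM (log2 change 0.29 ± 0.060, limma adjusted p = 0.00189). The cytosolic counterparts of cycle enzymes moved the same way. IDH1, the cytosolic NADP-dependent isocitrate dehydrogenase gene, rose from 31.0 ± 1.88 to 38.8 ± 1.58 FPKM (0.32 ± 0.059, adjusted p = 9.08e-04), and the cytosolic malate dehydrogenase gene MDH1 from 93.1 ± 6.10 to 115 ± 0.326 FPKM (0.30 ± 0.057, adjusted p = 0.0011). The succinyl-CoA ligase gene SUCLA2 was at 11.3 ± 0.278 and 12.9 ± 0.267 FPKM (0.17 ± 0.055, adjusted p = 0.0223). Its call was lost without Vehicle replicate 3 or XMU_MP_1 replicate 1 or 2 (adjusted p from 0.0508 to 0.0727), with median-ratio scaling (0.0557), with libraries rescaled to a common sum (0.385) and with the closest pairs averaged (0.105).

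The 5 cycle genes that did not pass include the entry enzyme. CS, the citrate synthase gene, was at 84.3 ± 2.86 and 84.8 ± 2.94 FPKM (limma adjusted p = 0.906, 95% interval of the log2 change -0.11 to 0.12). The succinate dehydrogenase gene SDHA had a log2 change of 0.05 (adjusted p = 0.416), its partner SDHB of 0.13 (0.0847), the mitochondrial isocitrate dehydrogenase gene IDH2 of 0.12 (0.0777) and the mitochondrial malate dehydrogenase gene MDH2 of 0.10 (0.151). SDHB and IDH2 passed as higher under quantile normalization (adjusted p = 0.047 and 0.0478). The counts of the 11 genes were 5 higher and 0 lower with median-ratio scaling, with libraries rescaled to a common sum and with the closest pairs averaged, and 8 and 0 with quantile normalization. Under the common sum the log2 changes of CS (-0.09) and SDHA (-0.04) were negative. Summed over the 11 genes, FPKM was 779, 742 and 773 in Vehicle and 852, 853 and 887 in XMU_MP_1, 13.0% higher on average and without overlap (exact permutation p = 0.1, adjusted p = 0.167 over 10 steps).

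**Figure D3:**
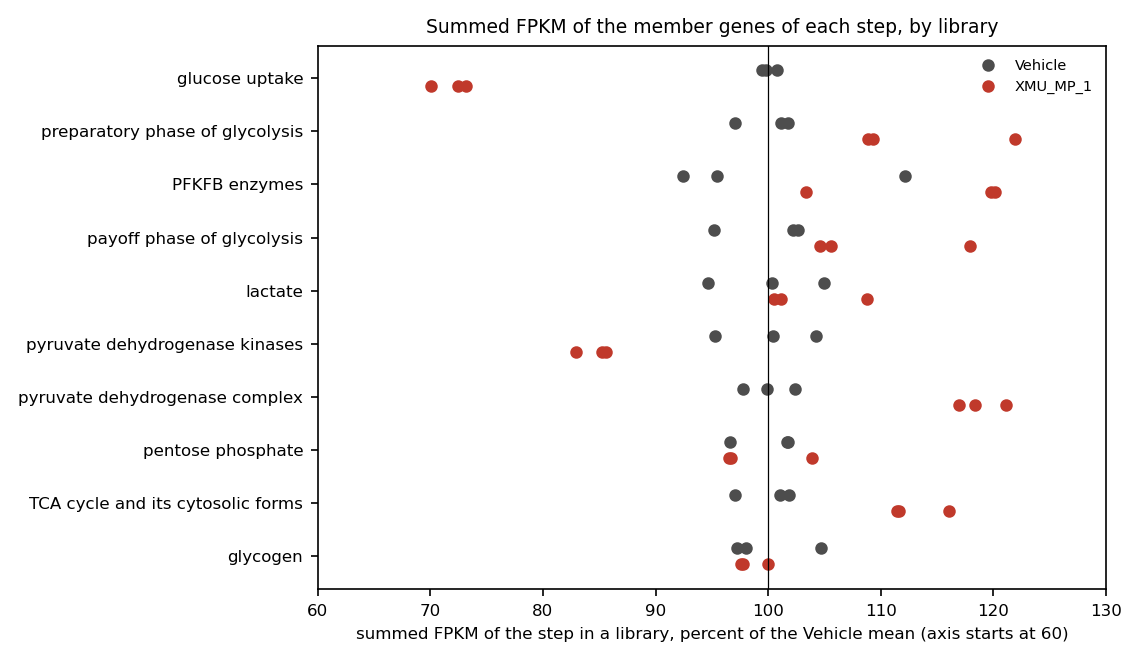
Summed FPKM of the member genes of each step in each library, as a percentage of that step's Vehicle mean (horizontal axis, starting at 60), with grey points for Vehicle and red points for XMU_MP_1. XMU_MP_1 libraries lie wholly below Vehicle for glucose uptake and the pyruvate dehydrogenase kinases, wholly above for the preparatory and payoff phases of glycolysis, the pyruvate dehydrogenase complex and the TCA cycle, and overlap with Vehicle for the other 4 steps. Sums are not divided by the library total, which was higher in every XMU_MP_1 library.

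Summed by step, the 2 glucose transporter genes differed by -28.1% with XMU_MP_1 and the kinases by -15.4%, while the genes of the pyruvate dehydrogenase complex were 18.8% higher. The preparatory phase was 13.4% higher and the payoff phase 9.37% higher. None of these sums was divided by the library total, which was higher in every XMU_MP_1 library than in any Vehicle library. With libraries rescaled to a common sum, the median log2 change of the tested genes went from 0.05 to -0.04 in the preparatory phase. In the payoff phase it went from 0.08 to -0.01, and in the TCA cycle from 0.17 to 0.08. In the preparatory and payoff phases ALDOA, TPI1 and GAPDH made up most of the difference in sums. XMU_MP_1 replicate 3 had the highest sums of both phases, at 3012 and 13160.2 FPKM. The lactate step had overlapping sums, 3.49% higher on average, a difference that was negative with libraries rescaled to a common sum. No step could pass the exact permutation test, which for 3 libraries against 3 cannot go below p = 0.1.

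In the pentose phosphate branch, which makes NADPH and ribose, members went both ways. PGD, the phosphogluconate dehydrogenase gene, measured 103, 100.2 and 105 FPKM in Vehicle and 119.9, 122 and 128 FPKM in XMU_MP_1. All XMU_MP_1 libraries were above all Vehicle libraries, and PGD rose by 0.26 ± 0.051 on the log2 scale (limma adjusted p = 0.00129). TKT, the transketolase gene of the non-oxidative arm, was at 449 ± 5.78 and 402 ± 19.7 FPKM (-0.16 ± 0.062, adjusted p = 0.0421), a call lost without Vehicle replicate 1 or 3 or XMU_MP_1 replicate 1 or 2 (adjusted p from 0.0954 to 0.16) and with the closest pairs averaged (0.312). TALDO1, the transaldolase gene, was at 229 ± 16.1 and 249 ± 10.6 FPKM and did not pass (0.12 ± 0.067, adjusted p = 0.139).

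Of the glycogen genes GYS1, which encodes the muscle-type glycogen synthase, was lower. It measured 23.9, 26.4 and 24.3 FPKM in Vehicle and 20.2, 21.0 and 22.2 FPKM in XMU_MP_1, without overlap, and fell by 0.22 ± 0.059 on the log2 scale (limma adjusted p = 0.00814). The phosphorylase genes, whose products release glucose from glycogen, did not pass. PYGL was at 71.7 ± 2.02 and 72.7 ± 1.17 FPKM (adjusted p = 0.739) and PYGB at 71.4 ± 3.77 and 71.5 ± 1.56 FPKM (adjusted p = 0.971). The 95% intervals of their log2 changes ran from -0.09 to 0.13 and from -0.12 to 0.12.

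**Figure D4:**
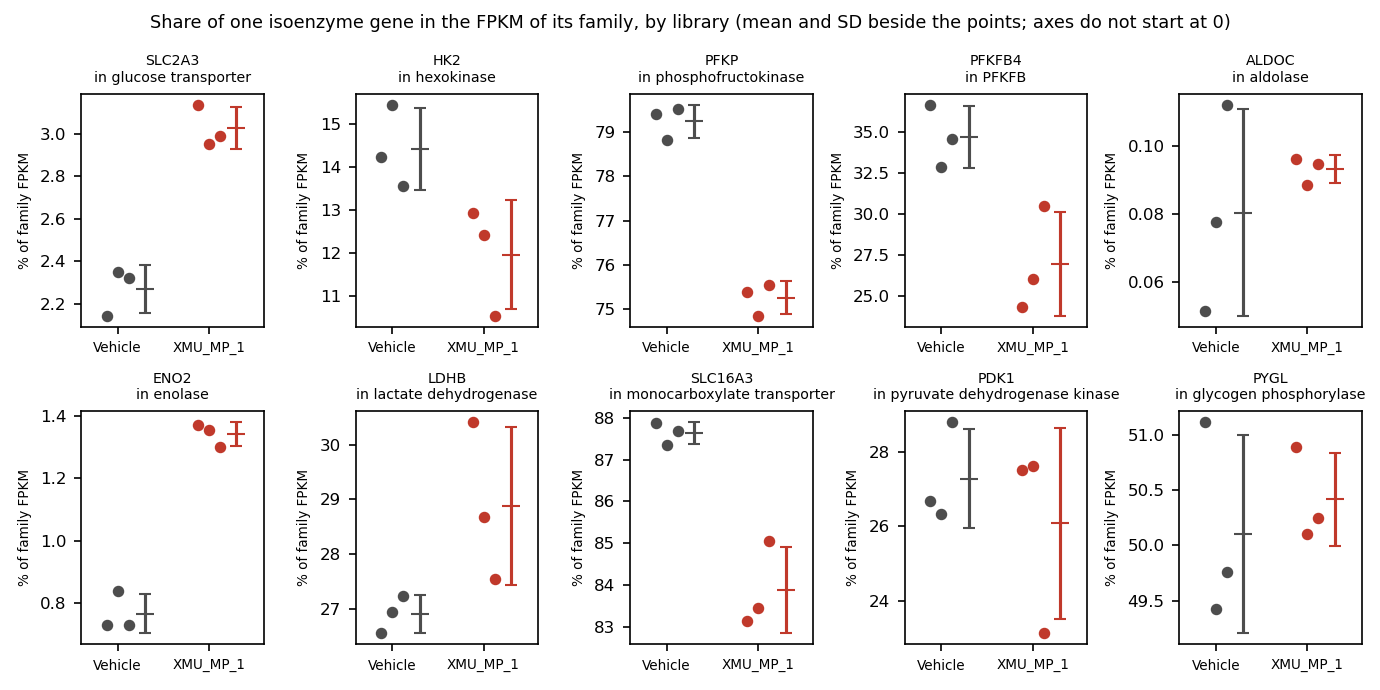
Share of the FPKM of an enzyme or transporter family held by the named gene (vertical axes in percent, not starting at 0), with points for the 3 libraries of each group and bars for the mean ± SD. The groups are apart for SLC2A3, HK2, PFKP, PFKFB4, ENO2, LDHB and SLC16A3 and overlap for ALDOC, PDK1 and PYGL.

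Shares within a family do not change when a library is multiplied by a single factor, as with median-ratio scaling or a common sum. They can change with quantile normalization and were not recomputed with it. One gene was tested in each of 10 families. For 7 of these 10 genes the groups did not overlap, and each of these 7 shares had an exact permutation p of 0.1 and an adjusted p of 0.143. By FPKM rather than share, 63.7% of all genes tested had groups without overlap. Among the 10 genes tested, the differences in percentage points were largest for PFKFB4 (-7.72), PFKP (-3.98) and SLC16A3 (-3.76). The kinase gene tested, PDK1, overlapped, as did the share of PDK2, but the shares of PDK3 and PDK4 did not. PDK3 held 24.4%, 20.3% and 23.2% of the kinase FPKM in Vehicle and 30.02%, 28.5% and 29.5% in XMU_MP_1. PDK4 held 17.5%, 18.3% and 14.0% in Vehicle and 10.7% in each XMU_MP_1 library. PYGL held 50.1% ± 0.897 of the phosphorylase FPKM in Vehicle and 50.4% ± 0.420 with XMU_MP_1.

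The promoters of members were read for the core of the hypoxia response element. RefSeq promoter sequences (GRCh38.p14) matched 44 of the 48 members with 74 annotated starts. In the 250 bases upstream of the start, ACGTG on either strand was present in 31.1% of the windows of members and in 18.5% of all 35116 windows. The E-box CACGTG, which holds that core, was in 10.8% and 6.34%, and GGAATG, the core of TEAD sites, in 9.46% and 11.9%. By gene rather than by window, ACGTG lay upstream of at least 1 start for 20 of the 44 members. It did so for 9 of 15 members that were higher, 5 of 9 that were lower and 5 of 19 that did not pass. A gene can have several starts, and no share by gene was computed over all genes. The 18.5% of windows is therefore no background for these counts. A match is a description of the letters only. The stretches below are from 3 members that were higher and 2 that were lower, with every ACGTG or its reverse complement CACGT in capitals, and they lie outside annotated exons. The one of PGK1 is at chrX:78104021-78104094 (plus strand), that of PFKFB3 at chr10:6202799-6202854 (plus), that of PGD at chr1:10398894-10398948 (plus), that of SLC16A3 at chr17:82228949-82229016 (plus) and that of HK2 at chr2:74834951-74835051 (plus).
PGK1: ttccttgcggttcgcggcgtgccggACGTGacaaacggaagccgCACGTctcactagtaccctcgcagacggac
PFKFB3: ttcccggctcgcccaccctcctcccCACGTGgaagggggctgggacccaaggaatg
PGD: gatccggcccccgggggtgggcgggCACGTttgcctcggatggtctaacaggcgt
SLC16A3: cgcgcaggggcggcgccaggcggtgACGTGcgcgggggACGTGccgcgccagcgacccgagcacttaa
HK2: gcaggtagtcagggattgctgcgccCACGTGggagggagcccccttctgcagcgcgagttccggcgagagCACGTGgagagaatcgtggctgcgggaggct

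SLC16A3 carries a pair of cores close together and was lower, whereas PGK1 carries a pair and was higher. HK2 and PFKFB3 both carry the full E-box and moved in opposite directions.

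Of the listed genes for factors that can act on such sites, HIF1A and MYC were lower, as were 25.9% of all genes tested. EPAS1 did not pass, nor did ARNT, MLXIP and MLX (limma adjusted p from 0.0808 to 0.769). HIF1A was at 74.1 ± 2.41 and 54.5 ± 1.73 FPKM (log2 change -0.44, limma adjusted p = 3.57e-05), EPAS1, which encodes HIF-2 alpha, at 17.0 ± 0.840 and 15.9 ± 1.08 FPKM (adjusted p = 0.22), and MYC, a further activator of glycolytic genes, at 32.1 ± 0.784 and 26.8 ± 1.36 FPKM (-0.25, adjusted p = 0.00246). TXNIP and ARRDC4, arrestin-family genes induced by glucose metabolites whose products limit glucose uptake, were higher. TXNIP went from 5.59 ± 0.125 to 6.89 ± 0.635 FPKM (0.26, adjusted p = 0.0117) and ARRDC4 from 1.20 ± 0.161 to 1.997 ± 0.127 FPKM (0.45, adjusted p = 6.3e-04). Protein levels and binding were not measured, so whether the HIF1A transcript gives an active factor in these cells cannot be told from these data.

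Other genes of the same pathways were taken from a list of 82, of which 79 are in the tables and 57 were tested. With limma 18 were higher and 9 lower (47.4% of those tested, against 57.9% of all genes), or 11 and 15 with libraries rescaled to a common sum. Around pyruvate, MPC1, which encodes a subunit of the mitochondrial pyruvate carrier, rose from 9.05 ± 1.62 to 16.5 ± 0.514 FPKM (log2 change 0.81 ± 0.103, adjusted p = 6.52e-05). The mitochondrial phosphoenolpyruvate carboxykinase gene PCK2 rose by 0.64 ± 0.052 (adjusted p = 2.58e-06), whereas PDP1, which encodes a phosphatase that reactivates pyruvate dehydrogenase and so opposes the kinases, fell from 20.5 ± 1.02 to 12.2 ± 1.39 FPKM (-0.71 ± 0.079, adjusted p = 2.44e-05). PDP1 was therefore lower alongside 3 of the 4 kinase genes.

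Of the 18 further TCA cycle and malic enzyme genes tested, 6 were higher, 4 were lower and 8 did not pass. Among all genes tested 32% were higher and 25.9% lower, and the median log2 change was 0.03 for this list and 0.04 for all genes. SDHAF1, which encodes an assembly factor of succinate dehydrogenase, had the largest rise of this list, from 8.03 ± 0.827 to 14.99 ± 0.570 FPKM (log2 change 0.83 ± 0.073, limma adjusted p = 4.73e-06). The falls include SDHAF2 (-0.34, limma adjusted p = 0.00153) and ACLY (-0.38, 3.74e-04). GOT1, a cytosolic aspartate aminotransferase gene, rose by 0.56 ± 0.058 (adjusted p = 1.51e-05). In glucose uptake and the first steps 4 of 7 tested genes were higher and 2 lower, against 32% and 25.9% of all genes tested. The median log2 change of the 7 was 0.29. The higher ones were the transporter genes SLC2A8 (0.54, adjusted p = 2.41e-05) and SLC2A13 (0.49, 5.26e-04), TIGAR, whose product lowers the sugar bisphosphate that activates phosphofructokinase (0.40, 2.76e-04), and ADPGK, an ADP-dependent glucokinase gene (0.29, 0.00174). HKDC1, a hexokinase-like gene, fell from 7.10 ± 0.326 to 3.14 ± 0.177 FPKM (-0.97 ± 0.068, adjusted p = 8.42e-07), the largest change of the list, and the transporter gene SLC2A6 fell by 0.49 ± 0.054 (adjusted p = 2.12e-05). In the pentose phosphate list only PRPS2, a phosphoribosyl pyrophosphate synthetase gene, passed of 7 tested (0.13, adjusted p = 0.0365), against 57.9% of all genes.

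**Figure D5:**
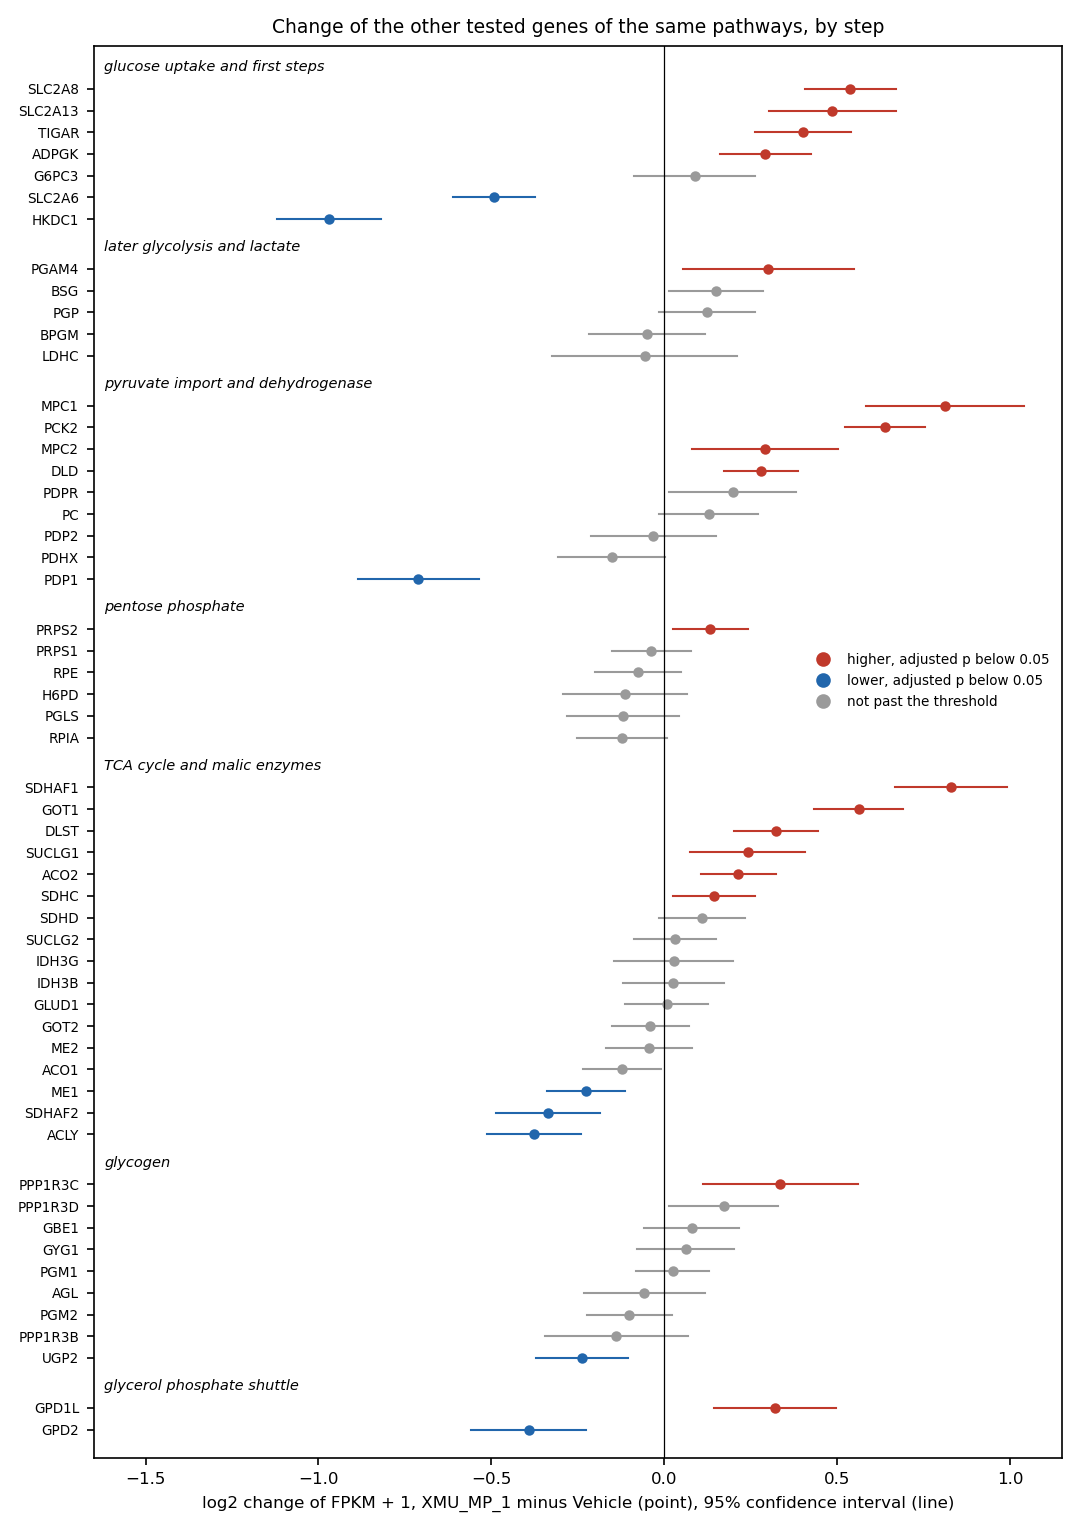
Log2 change of FPKM + 1 (horizontal axis, XMU_MP_1 minus Vehicle) for tested genes of the same pathways that are not among the 48 (all but 2 of the 57), with points for the estimate and lines for the 95% confidence interval from limma. HKDC1 at -0.97 and SDHAF1 at 0.83 are the extremes. MPC1 (pyruvate carrier) and PDP1 (pyruvate dehydrogenase phosphatase) lie on opposite sides.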

How the data were processed

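The labels' protocols give Trizol extraction from 786-O cells and BGISEQ-500 library preparation. Groups and replicate numbers come from the sample titles. The authors deposited FPKM to 2 decimals for 17114 gene symbols per library, per the file headers. GRCh38 is the build named by the submitters' processing notes. No source used here names the aligner, quantifier or filters. FPKM is relative to each library's total, so a change in very abundant genes shifts all others, and depth is unknown.

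The 11151 genes averaging 1 FPKM or more were tested with limma 3.58.1 (R 4.3.3, statmod 1.5.0) on log2(FPKM + 1), group as the only term, with a mean-variance trend and robust moderation. P-values are two-sided and adjusted by Benjamini-Hochberg over all genes tested, with a threshold of 0.05. Exact permutation tests, two-sided, served for step sums and isoenzyme shares (scipy 1.17.1). Alternatives were another pseudocount (0.1), other filters, 3 scalings, a replicate block, plain moderation, a minimum fold, averaged pairs and libraries left out. On simulated data with 11151 genes, 21.9% of log2 changes of 0.25, 80.7% of 0.5 and 97.9% of 1 were recovered. Of the calls 3.69% were false. Over 5 draws together only 315, 353 and 332 genes carried these changes, with independent errors. In the data 57.9% of genes passed, so these rates need not hold for this comparison.

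The members and lists were chosen with earlier results of these data known. Values in every library are given for members past the threshold with an absolute log2 change of at least 0.4 and no overlap, and for the member of each step with the largest change. Of the other pathway genes the 4 largest rises and falls are named, except that 2 genes of that list are not reported here. Further genes, values in single libraries and promoter stretches were chosen after their values were seen. Gene positions are those of GENCODE 29.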

Additional observations from a re-analysis of the deposited data

How the results depend on the processing

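No called member changed direction under any alternative, and 14 of the 27 lost their call under at least 1. With libraries rescaled to a common sum, 2252 genes were higher, with 10 members higher and 11 other pathway genes higher and 15 lower. With a minimum fold of 1.5, 158 genes were called higher and 455 called lower, 1 member was higher and 0 lower, and of the other pathway genes 0 were higher and 1 lower. Averaging the closest pairs left 8 members higher. Leaving out 1 library gave 3053 to 3590 genes higher and 2545 to 2850 lower, 11 to 16 members higher (11 without XMU_MP_1 replicate 1) and 7 to 9 lower, and 13 to 18 other pathway genes higher and 9 to 10 lower. The median log2 change of all genes was 0.04, or 0.01 with median-ratio scaling and -0.05 with a common sum.

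Members that had not passed turned sign, and the cause was not tested. With median-ratio scaling the log2 changes were -0.016 for GPI, -0.0025 for PGAM1, -0.027 for CS, -0.014 for PYGL and -0.032 for PYGB. With a common sum they were -0.077 for GPI, -0.011 for PFKL, -0.064 for PGAM1, -0.018 for LDHA, -0.088 for CS, -0.044 for SDHA, -0.075 for PYGL and -0.093 for PYGB, and the summed FPKM of the lactate step differed by -124. With quantile normalization they were -0.31 for GAPDH, -0.075 for PGAM1, -0.073 for LDHA and -8.9e-04 for CS. With the closest pairs averaged they were 0.013 for ENO1, 0.0064 for PKM, -8.9e-04 for CS and -0.022 for PYGB. Without Vehicle replicate 2 and XMU_MP_1 replicate 3 they were 0.0066 for HK1, -0.020 for GPI, -0.023 for LDHA and 0.025 for DLAT. Leaving out 1 library gave ranges of -0.043 to 0.0066 for ENO1, -0.030 to 0.043 for PYGB, -0.018 to 0.034 for CS, -0.057 to 0.0087 for PKM, -0.020 to 0.046 for GPI and -0.029 to 0.015 for DLAT. The difference in summed FPKM ran from -26.3 to 2.44 for the pentose phosphate step and from -4.89 to 1.35 for the glycogen step. Differences in share ran from -0.0017 to 0.029 percentage points for ALDOC, from -1.97 to 0.28 for PDK1 and from -0.023 to 0.82 for PYGL.

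With the replicate number as a block, 3956 genes were higher and 3093 lower, and 20 members were higher and 11 lower. PFKFB4 (adjusted p = 0.0366, lower), GAPDH (0.00812), TALDO1 (0.0483) and SDHB (0.0343, all 3 higher) passed only with the block of these 2 fits, and no member lost its call. Deviations of same-numbered libraries from their group means correlated at -0.20, 0.39 and 0.24 over 11151 genes. Not every library correlated best with its own number. Deviations within a group are tied to each other through its mean, so these values cannot settle whether same-numbered libraries share a culture or batch. FPKM without counts leaves the precision of low genes such as PFKFB2 and PDK4 unknown.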
